A study of Mus musculus with 32 samples.

Results

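The 32 genes described here encode the enzymes and carriers that supply acetyl-CoA to the tricarboxylic acid (TCA) cycle, run the cycle, and link it to glutamate and to the cytosol. They were chosen by name, by a rule that uses no measured value but was written with earlier results of these data known, and each was found by its Ensembl identifier among the 53700 genes of the counts table. All 32 passed the filter on low values that left 13961 genes for testing. RNA was sequenced from 32 kidneys of C57BL/6 males of the iKspCre-Pkd1del line. In this line a Cre recombinase that tamoxifen activates is driven by the KspCad promoter, which is active in tubular epithelium, so that other kidney cells keep Pkd1, the gene that is mutated most often in autosomal dominant polycystic kidney disease. The 8 wildtype mice belonged to the same line, received no tamoxifen and were 109 days old. The 12 PKD mice received 150 mg/kg tamoxifen on postnatal days 18 and 19 and were 95 days old. The 12 PKD + Salsalate mice had the same tamoxifen and age, and from day 81 ate chow with 2.5 g/kg salsalate, a prodrug of salicylate that activates the energy sensor AMPK, for 2 weeks. Per the study, the mice of both PKD groups were picked from a larger number for being alike in a mild cystic phenotype. Genotype cannot be told apart from tamoxifen or from age.

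Pyruvate enters mitochondria through the MPC1 and MPC2 carrier and is turned into acetyl-CoA by the pyruvate dehydrogenase complex. Acetate, ketone bodies and fatty acids are other sources of acetyl-CoA. The cycle oxidises the acetyl group, and its intermediates are refilled from glutamate and exchanged with the cytosol by carriers of the inner membrane. The proximal tubule of the kidney depends on this oxidative route, and its enzymes are therefore abundant in kidney tissue.

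Counts per library on genes ran from 11193136 to 109807664 with a median of 17242801, and the next deepest library held 47213530. The lowest count of any of the 32 genes in any kidney was 107, for Acss3 in a PKD kidney. The wildtype libraries fell into 2 sets by their names. The 5 whose names end in R (replicates 1 to 5) had a summed level of 12 proximal tubule markers of 11876 to 15017 CPM (counts scaled per 1000000 counts of a library), and the 3 with other names (replicates 6 to 8) had 19300 to 23079. No PKD library has a name that ends in R, and what the letter stands for is not given in the sources used here. Reads that fell on no gene were 13.2 to 15.7% in the R libraries, 7.60 to 9.77% in the 3 others and 7.65 to 16.4% in PKD. The numbers of called genes in the comparisons with wildtype are therefore given also against each set, as are the single genes whose call or direction turned on it in PKD. PKD replicate 10 held 5613 CPM of 12 liver markers, against 137 to 246 in all other kidneys. The gene-level count of Pkd1 was higher in PKD than in wildtype, by 0.42 on the log2 scale (SE 0.11, adjusted p = 0.00134). Since this count covers the whole gene, including exons outside the floxed ones, and cells without Cre, it does not check the deletion. Nothing in the labels says more of the kidneys of a group than that they are separate samples.

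Levels are CPM scaled by the trimmed mean of M values, given as lowest, median and highest kidney of a group. Fold changes are log2 with their standard error (SE), and adjusted p-values come from edgeR's quasi-likelihood test with Benjamini-Hochberg adjustment over the 13961 genes. A gene is said to be called where its adjusted p is under 0.05. In whole tissue, fewer cells of a type and less RNA per cell cannot be told apart.

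Per kilobase of the canonical transcript, the most abundant of the genes in wildtype kidneys was Mdh1, the cytosolic malate dehydrogenase, at 387 ± 91.0 CPM per kb (SD, 8 kidneys). Idh2, the mitochondrial NADP-dependent isocitrate dehydrogenase, followed at 337 ± 21.1 CPM per kb, which lies within the spread of Mdh1. Mdh2, Suclg1 and Mpc1 came next at 242, 226 and 205 CPM per kb. The lowest were Gpt2, Pdhx and Acss3 at 10.9, 8.93 and 4.49 CPM per kb. Idh2 was second and Acss3 last in PKD and PKD + Salsalate kidneys as well.

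The promoters of 3 of the genes are printed for their patterns reported below: Pdha1, lower in PKD and little different with salsalate, Suclg1, lower in PKD, and Dlst, which varied least between PKD kidneys. Each is the 250 bases before the start of the canonical transcript in GRCm39, written along the strand of the gene. The Pdha1 window lies at chrX:158921426-158921675 (minus strand), Suclg1 at chr6:73225115-73225364 (plus strand) and Dlst at chr12:85156777-85157026 (plus strand). At most 1 base of each falls in an annotated exon, whereas all 250 bases of the Acss1, Idh2 and Slc25a10 windows do, and these are not printed. Matches to 3 short motifs, searched on both strands, would stand in capitals, namely AAGGTCA (a half-site of estrogen-related receptors), TGCGCA (within the site of nuclear respiratory factor 1) and CAAAGTC (within the site of HNF4).
Pdha1 promoter: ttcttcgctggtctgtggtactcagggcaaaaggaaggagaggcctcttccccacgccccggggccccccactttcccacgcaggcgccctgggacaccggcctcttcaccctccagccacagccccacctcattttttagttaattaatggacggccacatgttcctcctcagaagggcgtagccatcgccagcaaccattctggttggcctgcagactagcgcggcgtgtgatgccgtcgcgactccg
Suclg1 promoter: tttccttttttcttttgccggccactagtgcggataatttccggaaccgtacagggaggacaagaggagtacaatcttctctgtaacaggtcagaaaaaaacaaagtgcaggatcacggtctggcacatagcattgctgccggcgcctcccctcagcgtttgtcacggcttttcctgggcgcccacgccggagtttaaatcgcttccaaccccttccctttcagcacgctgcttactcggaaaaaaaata
Dlst promoter: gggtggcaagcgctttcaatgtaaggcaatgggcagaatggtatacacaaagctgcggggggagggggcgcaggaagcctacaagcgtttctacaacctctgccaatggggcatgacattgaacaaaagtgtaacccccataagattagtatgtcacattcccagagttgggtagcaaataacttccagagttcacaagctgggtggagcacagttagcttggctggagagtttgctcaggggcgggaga
None of these 3 windows held a match. Over the promoters of 12898 tested protein-coding genes, AAGGTCA stood in 3.36%, TGCGCA in 8.89% and CAAAGTC in 3.38%. Among the 32 genes, AAGGTCA stood in 1 promoter (Got1), TGCGCA in 2 (Got2 and Glud1) and CAAAGTC in 2 (Ogdh and Idh1). A match is a description of the letters and not a binding site.

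The first comparison asks how the transcripts of this pathway differ between cystic and wildtype kidneys. Of the 32 genes, 14 were lower in PKD (43.8%, against 25.0% of all tested genes) and 2 were higher (6.25%, against 24.1%), and 16 were not called. The genes' median log2 fold change was -0.15 and that of all tested genes -0.01, with the 32 genes running from -0.62 to 0.43. Idh2 alone had groups that did not overlap (1 of 32, against 7.28% of all tested genes). Scaled by library totals alone, 8 of the genes were lower (25%) and 3 higher (9.38%), and the median of all tested genes moved to 0.10. The shares of all tested genes called in each direction under that scaling are not given here. Those of the main fit do not apply to it, so no excess of lower genes is read from these counts.

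**Figure D1:**
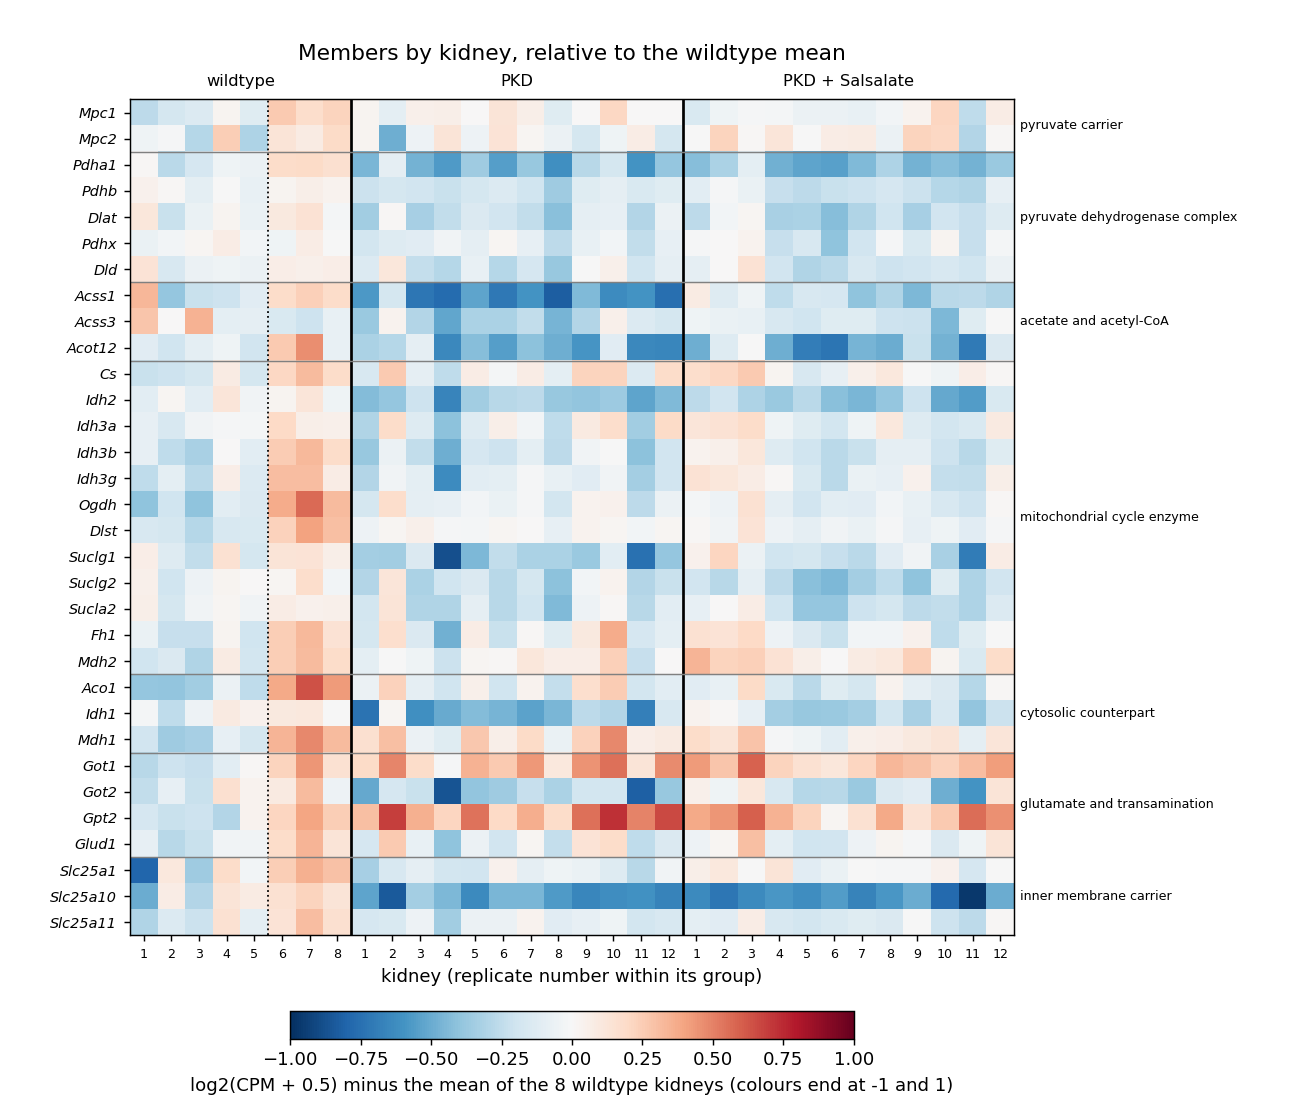
Level of each of the 32 genes (rows, by role) in each of the 32 kidneys (columns, by group), as log2(CPM + 0.5) minus the mean of the 8 wildtype kidneys, with blue for lower and red for higher. The dotted line parts the 5 wildtype libraries with names that end in R from the 3 others. Acss1, Acot12, Idh2 and Slc25a10 are blue in nearly all PKD kidneys, Got1 and Gpt2 are red, and the 3 other wildtype libraries are redder than the 5.

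Neither subunit of the pyruvate carrier was called. Mpc1 had a log2 fold change of 0.02 (SE 0.06) and Mpc2 of -0.06 (SE 0.08), with 95% intervals of -0.11 to 0.15 and -0.22 to 0.10.

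The pyruvate dehydrogenase complex was lower in 3 of its 5 subunits. Pdha1, the catalytic E1 alpha subunit and the site of inhibitory phosphorylation, stood at 346, 412 and 475 CPM in wildtype and at 272, 311 and 391 CPM in PKD. All 12 PKD kidneys lay below the wildtype median, although the 2 groups overlapped through wildtype replicates 2 and 3. Pdha1 fell by 0.41 on the log2 scale (SE 0.07, adjusted p = 1.69e-05). Dlat, the E2 acetyltransferase core, stood at 106, 124 and 136 CPM in wildtype and at 92.5, 106 and 124 CPM in PKD. The overlap was wider here, with 1 PKD kidney above the wildtype median, and Dlat had a log2 fold change of -0.20 (SE 0.06, adjusted p = 0.00705). Pdhb, the E1 beta subunit, was also lower, with a log2 fold change of -0.18 (SE 0.04, adjusted p = 0.000987). Pdhx, which tethers E3 to the core, and Dld, the E3 subunit, had log2 fold changes of -0.11 and -0.14 and were not called (adjusted p = 0.0757 and 0.0632).

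All 3 genes of acetate and acetyl-CoA handling were lower. Acss1, the acetyl-CoA synthetase of the mitochondrial matrix, had the lowest fold change of the 32. It stood at 133, 180 and 219 CPM in wildtype and at 98.0, 114 and 154 CPM in PKD, and PKD replicate 2 was the only PKD kidney above the lowest wildtype kidney. Acss1 fell by 0.62 (SE 0.09, adjusted p = 4.36e-07), or 35.1% lower. Acot12, a cytosolic acetyl-CoA hydrolase, stood at 129, 140 and 206 CPM in wildtype and at 94.3, 108 and 140 CPM in PKD. Of the PKD kidneys, 10 lay below every wildtype kidney, and the log2 fold change was -0.44 (SE 0.10, adjusted p = 0.000510). Acss3, a propionyl-CoA and acetyl-CoA synthetase at a low level, had a log2 fold change of -0.26 (SE 0.08, adjusted p = 0.00674).

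Of the 12 mitochondrial cycle enzymes, 5 were lower and none was higher. Idh2 stood at 546, 585 and 640 CPM in wildtype and at 372, 451 and 508 CPM in PKD. The groups did not overlap, and Idh2 fell by 0.39 (SE 0.06, adjusted p = 1.94e-06). Suclg1, the alpha subunit shared by both forms of succinyl-CoA ligase, stood at 287, 357 and 380 CPM in wildtype and at 185, 269 and 318 CPM in PKD. All 12 PKD kidneys lay below the wildtype median, with a log2 fold change of -0.38 (SE 0.09, adjusted p = 0.00107). The beta subunits Suclg2 (GTP-forming) and Sucla2 (ATP-forming) had smaller log2 fold changes of -0.18 and -0.17 (SE 0.06 and 0.07, adjusted p = 0.0190 and 0.0327). Idh3b, a subunit of the NAD-dependent isocitrate dehydrogenase, had -0.22 (SE 0.08, adjusted p = 0.0181). Its partner subunits Idh3a and Idh3g had -0.06 and -0.18 and were not called. The Idh3b call was lost without wildtype replicate 6 or 7, with a highest adjusted p of 0.0585 without replicate 7. The Sucla2 call was lost without wildtype replicate 1, 6 or 8 or PKD replicate 3, 8 or 11, with a highest adjusted p of 0.0595. The condensing enzyme Cs, the oxoglutarate dehydrogenase subunits Ogdh and Dlst, the fumarase Fh1 and the malate dehydrogenase Mdh2 were not called, with log2 fold changes from -0.10 to 0.02.

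Among the cytosolic counterparts, Idh1, which makes NADPH from isocitrate, was lower. Idh1 stood at 262, 316 and 336 CPM in wildtype and at 188, 227 and 317 CPM in PKD, and 10 of the 12 PKD kidneys lay below every wildtype kidney. The log2 fold change of Idh1 was -0.42 (SE 0.08, adjusted p = 7.14e-05). Aco1, the cytosolic aconitase that is also an iron regulatory protein, and Mdh1 had log2 fold changes of -0.07 and 0.11 and were not called.

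The glutamate-linked genes moved in both directions. Got2, the mitochondrial aspartate aminotransferase, stood at 281, 333 and 418 CPM in wildtype and at 184, 265 and 297 CPM in PKD. It was lower, with all 12 PKD kidneys below the wildtype median and a log2 fold change of -0.38 (SE 0.10, adjusted p = 0.00179). Got1, its cytosolic partner in the malate-aspartate shuttle, stood at 74.99, 88.2 and 124 CPM in wildtype and at 90.3, 113 and 134 CPM in PKD. It was higher, with a log2 fold change of 0.29 (SE 0.09, adjusted p = 0.00528). Gpt2, the mitochondrial alanine aminotransferase, stood at 45.8, 53.8 and 73.9 CPM in wildtype and at 63.8, 75.9 and 93.8 CPM in PKD. Its log2 fold change was 0.43 (SE 0.09, adjusted p = 0.000283). All 12 PKD kidneys lay above the wildtype median of Got1 and of Gpt2, while the groups overlapped for both. Glud1, glutamate dehydrogenase, had -0.08 and was not called. An annotated gene on the same strand covers 4.41% of the exon bases of Glud1, so that this part of its count is uncertain.

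Of the inner membrane carriers, Slc25a10, which exchanges malate and succinate for phosphate, was lower. It stood at 449, 683 and 742 CPM in wildtype and at 354, 423 and 501 CPM in PKD, and 7 of the 8 wildtype kidneys lay above every PKD kidney. Slc25a10 fell by 0.58 (SE 0.08, adjusted p = 1.53e-07). The citrate carrier Slc25a1 and the oxoglutarate carrier Slc25a11 had log2 fold changes of -0.17 and -0.13 and were not called (adjusted p = 0.115 and 0.0999).

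**Figure D2:**
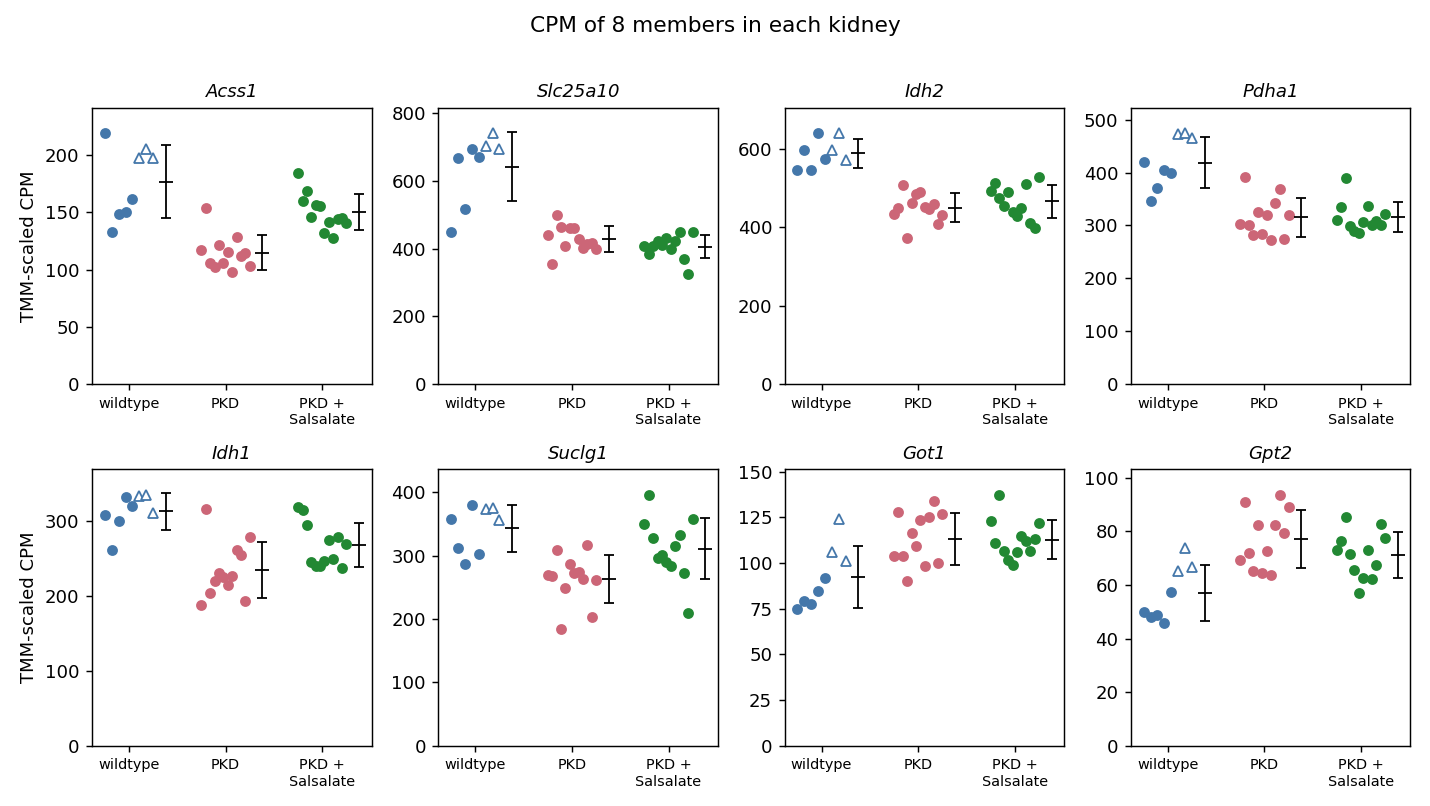
CPM of 8 of the genes in each kidney, one point per kidney, with the group mean and SD as black bars. Open triangles are the 3 wildtype libraries with other names. Idh2 of all 12 PKD kidneys lies below the wildtype kidneys, and Acss1 of all 12 PKD + Salsalate kidneys lies above the PKD median.

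The choice of wildtype libraries moved many of these differences. Against the 5 libraries with names that end in R, 10 of the genes were lower in PKD (31.2%, against 28.9% of all tested genes) and 7 were higher (21.9%, against 30.7%). Against the 3 other libraries, 24 were lower (75%, against 19.9%) and none was higher (against 20.9%). Tested directly against each other, 18 of the 32 genes were higher in the 3 other libraries (56.2%, against 23.7% of all tested genes) and none was lower (against 24.4%). The median log2 difference between the sets was 0.31 over the 32 genes and -0.02 over all tested genes.

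Of the 32 genes, 9 were lower in PKD against both sets, beside 8.06% of the 13844 genes tested in both fits. These were Pdha1, Pdhb, Acss1, Acot12, Idh2, Suclg1, Idh1, Got2 and Slc25a10, of which Pdhb was not called when scaled by library totals alone. Idh2 gave nearly the same value against either, at -0.37 and -0.43, while Acss1 gave -0.50 and -0.81. None was higher against both, beside 11.5% of all tested genes. Got1 and Gpt2 were higher against the R set, by 0.47 and 0.62, but not called against the other set, at 0.03 (adjusted p = 0.849) and 0.16 (adjusted p = 0.269). For 5 genes, Mpc1, Ogdh, Dlst, Aco1 and Mdh1, PKD kidneys were called higher than the one set and lower than the other, as for 6.30% of all tested genes. Aco1 was 0.27 higher against the R set and fell by 0.51 against the other, and Ogdh had 0.19 and -0.48. Another 10 were lower only against the 3 other libraries, namely Dlat, Idh3b, Idh3g, Suclg2, Sucla2, Fh1, Mdh2, Glud1, Slc25a1 and Slc25a11, Acss3 was lower only against the R set, and Mpc2, Pdhx, Dld, Cs and Idh3a were called against neither.

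**Figure D3:**
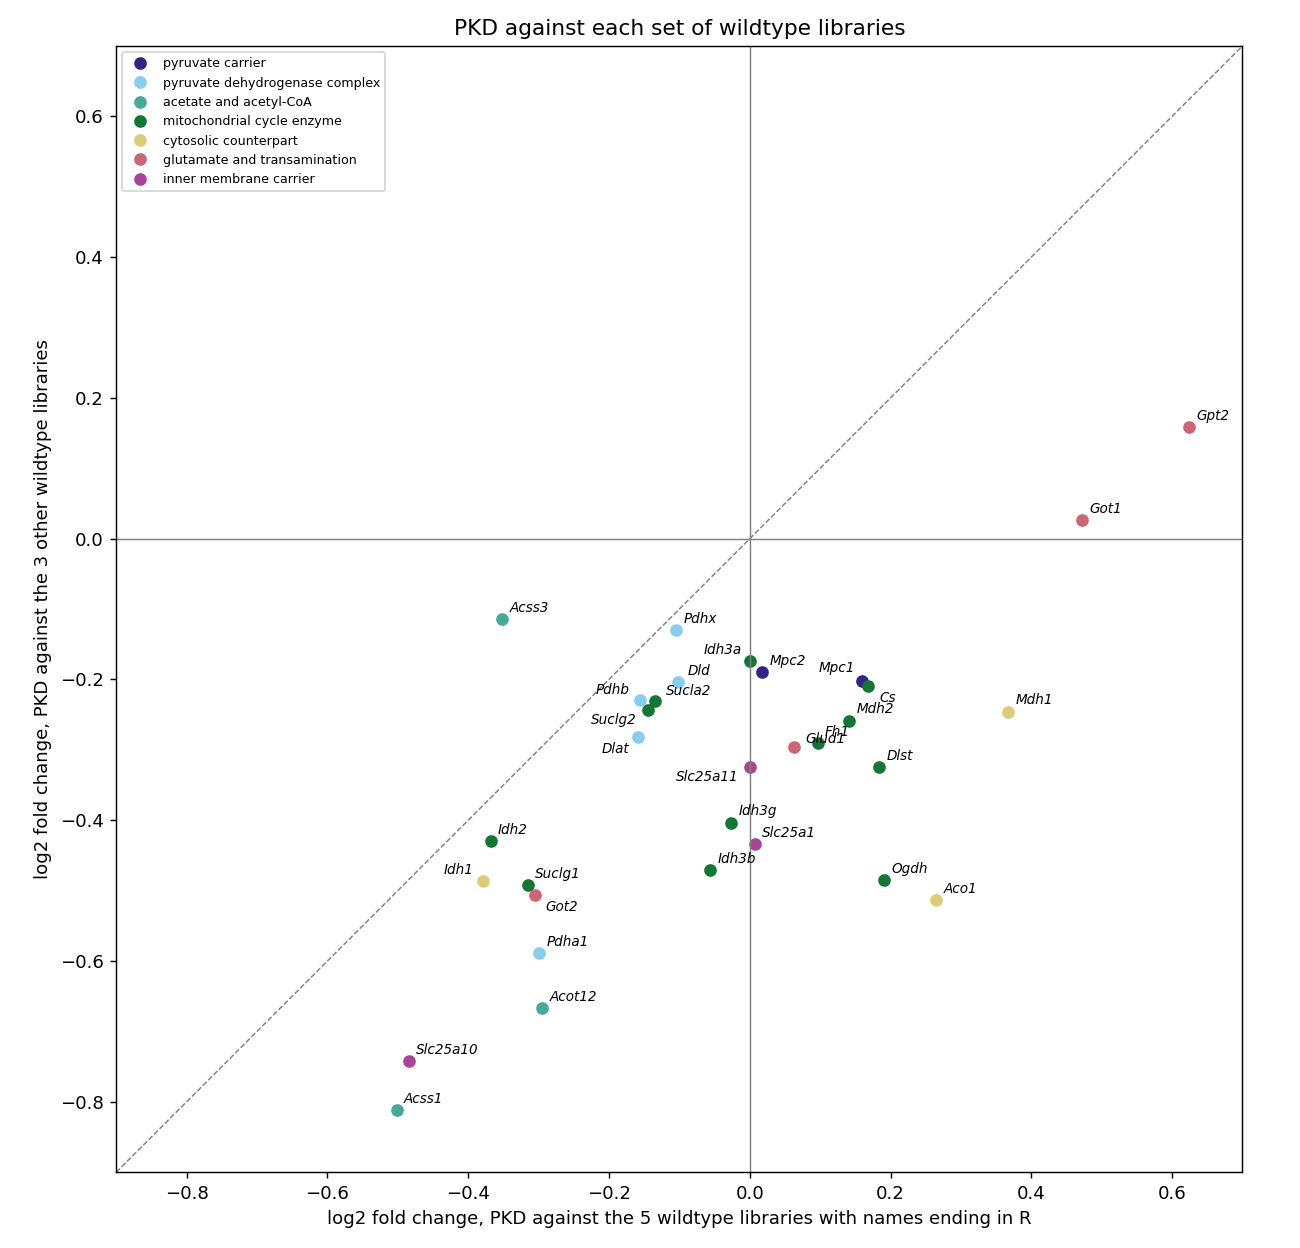
Log2 fold change of each gene in PKD kidneys against the 5 wildtype libraries with names that end in R (horizontal) and against the 3 others (vertical), coloured by role, with the line of equal values dashed. All genes but Acss3 lie below the dashed line. Got1 and Gpt2 are the only points above 0 on the vertical axis. The 9 genes called lower against both sets lie in the lower left, among other genes.

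Other cell types moved with the same comparison, and their part in the results was not tested. All 8 leukocyte markers that were tested, of 12 listed, all 8 fibroblast markers and all 6 markers of injured tubule were higher in PKD. The leukocyte markers below the filter were the lymphocyte genes Cd3e, Cd3g, Cd79a and Ms4a1. Their means in wildtype and PKD were 0.74 and 1.25 CPM for Cd3e and 1.22 and 1.68 CPM for Cd3g. Cd79a and Ms4a1 went the other way, at 1.39 and 0.95 CPM and at 0.44 and 0.29 CPM. Sums here are over all listed markers of a cell type, tested or not. They were 145 to 234 CPM in wildtype and 345 to 518 CPM in PKD for leukocytes, 328 to 481 and 732 to 1269 CPM for fibroblasts, and 162 to 325 and 308 to 690 CPM for injured tubule. Of the 12 proximal tubule markers, 2 were higher and 4 lower, and their sum was 11876 to 23079 CPM in wildtype and 13202 to 17602 CPM in PKD. Against the R set 7 of the 12 were higher and 1 lower, and against the other set none was higher and 8 were lower. Of the 8 markers of thick ascending limb and distal convoluted tubule, 5 were lower and none higher (median log2 fold change -0.51), with 4 lower against both sets, and their sum was 3413 to 5637 CPM in wildtype and 3240 to 4285 CPM in PKD. Of the 8 collecting duct markers, 4 were lower, each against both sets, and none was higher, and their sum was 448 to 784 CPM in wildtype and 480 to 857 CPM in PKD. Of the 9 liver markers tested, 6 were higher. The sum of all 12 liver markers listed was 137 to 234 CPM in wildtype and 146 to 200.1 CPM in PKD without replicate 10. Against both sets, all 8 leukocyte markers, 5 of 8 fibroblast markers and 5 of 6 injured tubule markers were higher. None of the markers was at 0 in every kidney of a group. Counts on the mitochondrial genome made up 9.86 to 12.6% of an R library, 8.07 to 9.21% of the 3 other wildtype libraries and 6.98 to 9.36% of a PKD library.

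The second comparison asks what 2 weeks of salsalate did to these transcripts in PKD kidneys. Of the 32 genes, 1 was called, Acss1, against 0.251% of all tested genes higher and 0.329% lower. The study already reports Acss1 as higher with salsalate, and the 32 genes were listed with earlier results known. The count is therefore no test of the list. Acss1 stood at 98.0, 114 and 154 CPM in PKD and at 128, 145 and 185 CPM in PKD + Salsalate. All 12 treated kidneys lay above the PKD median, and 10 of the 12 PKD kidneys lay below every treated kidney, so that the groups overlapped through PKD replicates 2 and 9 alone. Acss1 was higher by 0.39 (SE 0.08, adjusted p = 0.0146), or 30.8%. Without PKD replicate 10, which carries the liver transcripts, the difference was 0.38 (adjusted p = 0.0212), and without the deepest library, PKD + Salsalate replicate 3, it was 0.37 (adjusted p = 0.0258). None of the 32 genes had groups that did not overlap, against 0.0287% of all tested genes.

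The other 31 genes were not called, with log2 fold changes from -0.11 (Gpt2) to 0.24 (Suclg1). Their 95% intervals stayed within -0.28 to 0.41. An unadjusted p under 0.05 was seen for 3 of them. Suclg1 stood at 185, 269 and 318 CPM in PKD and at 210, 308 and 396 CPM in PKD + Salsalate, with a log2 fold change of 0.24 (SE 0.08, adjusted p = 0.213) and 11 of 12 treated kidneys above the PKD median. Idh1 had 0.19 (SE 0.07, adjusted p = 0.279) with 12 of 12 kidneys above it, and Got2 had 0.20 (SE 0.09, adjusted p = 0.382) with 9 of 12. All 3 were among the genes lower in PKD than in wildtype. That comparison uses the same 12 PKD kidneys. Values low by chance in these kidneys would move both fold changes, so no reversal is read from the overlap. The pyruvate dehydrogenase subunits showed no detectable difference, with log2 fold changes from -0.02 to 0.00 and, for Pdha1, a 95% interval of -0.13 to 0.13. Slc25a10 and Idh2 had -0.08 (95% interval -0.22 to 0.06) and 0.05 (95% interval -0.06 to 0.16).

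**Figure D4:**
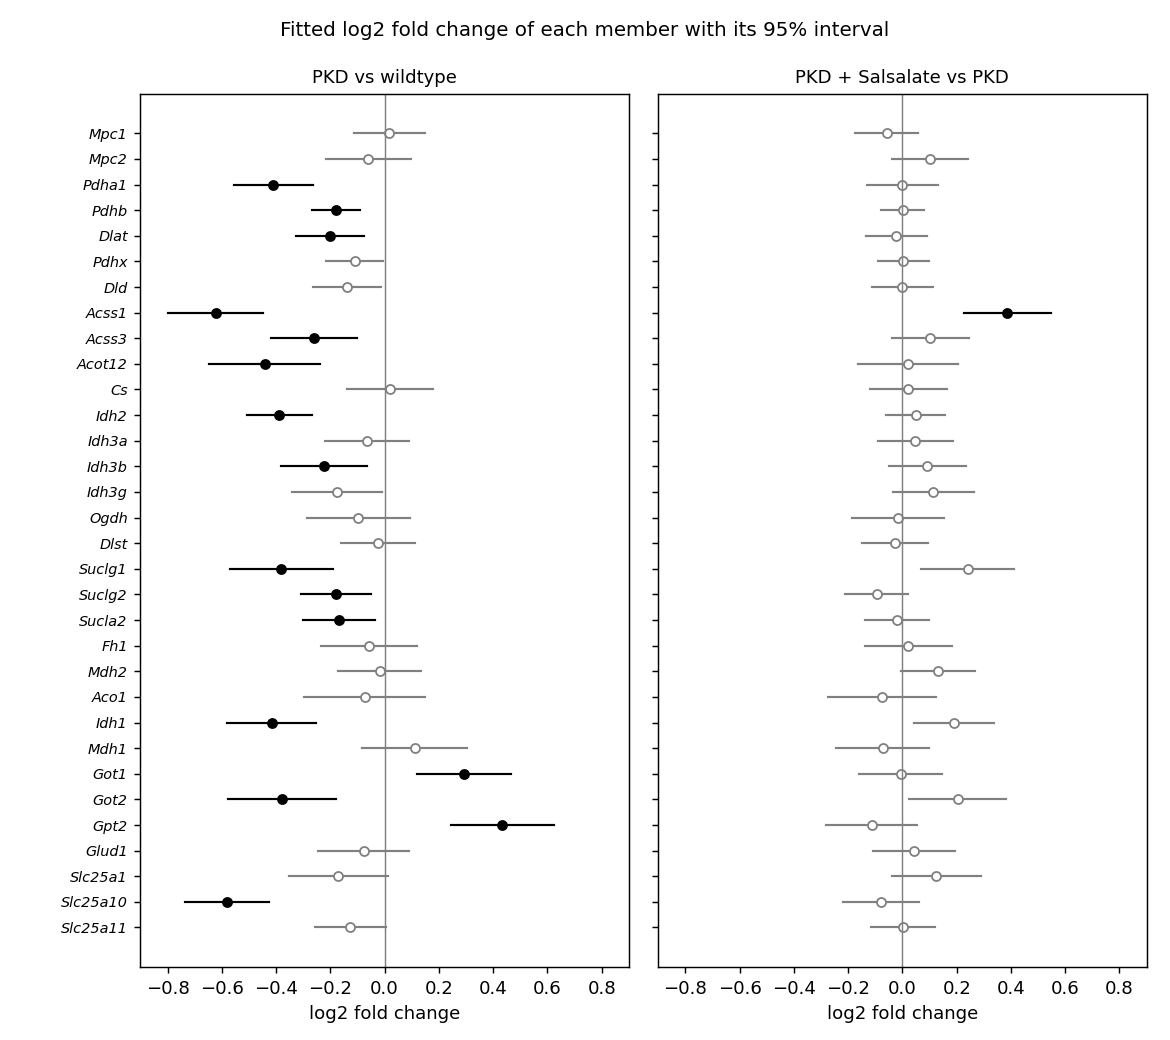
Fitted log2 fold change of each gene with its 95% interval, PKD against wildtype on the left and PKD + Salsalate against PKD on the right, with filled points for adjusted p under 0.05. The left panel has 16 filled points, 14 of them below 0. The right panel has 1, Acss1 at 0.39.

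Markers of other cell types were mostly not called in this comparison, and their part was not tested. None of the 12 proximal tubule, 8 thick ascending limb and distal convoluted tubule, 8 collecting duct, 8 leukocyte, 8 fibroblast or 6 injured tubule markers tested was called, and 2 liver markers of 9 tested, Alb and Apoc3, were lower. PKD replicate 10, which carries the liver transcripts, is among the PKD kidneys here, and these liver calls are not given without it. For Alb the medians of the 2 groups were nearly the same, while for Apoc3 the PKD median was the higher. All 6 injured tubule markers had log2 fold changes below 0 (median -0.37), 3 of them with an unadjusted p under 0.05. So had 3 markers of thick ascending limb and distal convoluted tubule, 2 of proximal tubule and 1 of collecting duct. With only the R set as wildtype in the fit, 1 proximal tubule marker was called higher, and likewise 1 with only the other set. The summed proximal tubule markers were 12528 to 16599 CPM in PKD + Salsalate, and those of injured tubule 284 to 817 CPM.

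Set against wildtype, PKD + Salsalate kidneys had 10 of the 32 genes lower (31.2%, against 23.2% of all tested genes) and 2 higher (6.25%, against 21.8%). This comparison shares its wildtype kidneys with the first and its treated kidneys with the second, so that the values are only set side by side. Lower in PKD + Salsalate were Pdha1, Pdhb, Dlat, Acss1, Acot12, Idh2, Suclg2, Sucla2, Idh1 and Slc25a10, and higher were Got1 and Gpt2. Acss1 was at -0.24 (SE 0.09, adjusted p = 0.0264), beside -0.62 in untreated PKD kidneys. That call was lost without wildtype replicate 1, 6, 7 or 8, with a highest adjusted p of 0.0838 and a log2 fold change of -0.19 without replicate 1. Slc25a10 was at -0.66 beside -0.58, Pdha1 at -0.41 beside -0.41 and Idh2 at -0.34 beside -0.39. Suclg1, Got2, Idh3b and Acss3, called in untreated PKD kidneys, were not called here, at -0.14, -0.18, -0.13 and -0.16.

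Idh2 was again the only one of the 32 genes with groups that did not overlap, at 398, 465 and 528 CPM in PKD + Salsalate against a lowest wildtype kidney of 546 CPM (6.39% of all tested genes). Against the R set, 8 of the genes were lower and 8 higher (28.4% and 29.7% of all tested genes). Against the other set, 19 were lower and none higher (16.5% and 18.3%). Lower against both sets were 7, namely Pdha1, Pdhb, Dlat, Acot12, Idh2, Suclg2 and Slc25a10, beside 6.09% of all tested genes, and none was higher against both, beside 9.95%. Acss1 in PKD + Salsalate kidneys was at -0.11 against the R set (adjusted p = 0.315) and at -0.42 against the other (adjusted p = 0.00126). Got1 and Gpt2 were not called against the other set, at 0.03 and 0.05 (adjusted p = 0.862 and 0.754), and Sucla2 and Idh1 were not called against the R set, at -0.15 and -0.19 (adjusted p = 0.0835 and 0.0889).

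The genes also differed in how much they varied between kidneys of a group. Dlst, the E2 subunit of the oxoglutarate dehydrogenase complex, was the steadiest in both mutant groups, with a coefficient of variation of 2.60% in PKD and 4.54% in PKD + Salsalate. In wildtype Pdhx was steadiest at 3.75%, while Aco1 reached 30.3% over the 2 sets of libraries. Single kidneys ran low or high for many of the genes at once. PKD replicates 4 and 8 held the lowest PKD level for 13 and 12 of the 32 genes, and PKD + Salsalate replicate 11 held the lowest of its group for 15. PKD replicate 4 was the shallowest library, at 11193136 counts, and had the highest share of reads on no gene, at 16.4%. PKD replicate 8 and PKD + Salsalate replicate 11 were deeper, at 24168600 and 28386500 counts. The part of depth and of such reads was not tested. The deepest library, PKD + Salsalate replicate 3, held the highest of its group for 19, and PKD replicates 2 and 10 for 11 each. Suclg1 and Got2 were low in the same kidneys. In PKD replicates 4 and 11 Suclg1 stood at 185 and 204 CPM and Got2 at 184 and 190 CPM, and in PKD + Salsalate replicate 11 they stood at 210 and 220 CPM.

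The cycle is regulated and fed by genes outside the 32, of which 45 were listed. All 45 were tested, and in PKD against wildtype 20 were lower (44.4%, against 25.0% of all tested genes) and 4 higher (8.89%, against 24.1%). Against the R set 15 were lower and 12 higher (28.9% and 30.7% of all tested genes), and against the other set 26 were lower and 3 higher (19.9% and 20.9%). Among the lowest fold changes were those of Pdpr, the regulatory subunit of pyruvate dehydrogenase phosphatase, and Pdk1, a kinase that inhibits pyruvate dehydrogenase, both at -0.78 (SE 0.17 and 0.07). Pdk1 stood at 46.2, 54.5 and 68.8 CPM in wildtype and at 27.6, 32.6 and 42.7 CPM in PKD, with no overlap. It was among 4 of the 45 genes with groups that did not overlap, against 7.28% of all tested genes. Pyruvate carboxylase Pcx, which refills oxaloacetate, was at -0.59 (SE 0.11) and the dicarboxylate transporter Slc13a3 at -0.57 (SE 0.12).

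Higher were Pck2, the mitochondrial PEP carboxykinase, at 0.33 (SE 0.07), the glutamate carrier Slc25a22 at 0.32 (SE 0.10), Pdp1, the catalytic phosphatase subunit that activates pyruvate dehydrogenase, at 0.28 (SE 0.07) and the cytosolic alanine aminotransferase Gpt at 0.27 (SE 0.11). Against both sets of wildtype libraries 11 of the 45 were lower and 2, Pck2 and Pdp1, were higher. Of the 13844 genes tested in both fits, 8.06% were lower and 11.5% higher. Slc25a22 and Gpt were called higher against the R set only. With salsalate none of the 45 was called against PKD by edgeR's quasi-likelihood test, 6 had an unadjusted p under 0.05, and their log2 fold changes ran from -0.26 to 0.23. One of them, Slc25a22, named here after its value was seen, was called higher when the 3 other libraries alone stood for wildtype in the fit (log2 fold change 0.24, adjusted p = 0.0479), beside 0.23 (adjusted p = 0.233) with all wildtype libraries. Against wildtype, PKD + Salsalate kidneys had 19 lower (42.2%, against 23.2% of all tested genes) and 4 higher (8.89%, against 21.8%). Against the R set these were 16 lower and 11 higher (28.4% and 29.7% of all tested genes), and against the other set 24 lower and 4 higher (16.5% and 18.3%).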

How the data were processed

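Poly(A) RNA of snap-frozen kidneys was sequenced by the authors with a directional NEBNext Ultra II kit. Per the labels, reads were demultiplexed with bcl2fastq 2.20, trimmed with cutadapt 2.10, aligned with STAR 2.7.5a to GRCm39 and counted per Ensembl gene with HTSeq 0.12.4. The authors deposited these raw counts, 1 column for each of the 32 kidneys, with 5 summary lines that were left out. Of the 53700 gene identifiers, 52610 were named through GENCODE.

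Here a gene was tested where its log2 CPM exceeded 1 in at least 8 of the 32 kidneys. One model over the 3 groups was fitted with edgeR 4.0.16 (R 4.3.3), with TMM factors and the quasi-likelihood F test, after a test on simulated counts. Intervals are 95%. All 32 genes are named. Values by kidney are given for those called with salsalate and, for PKD against wildtype, for at most 2 called genes in each direction of each role. Of the other pathway genes, the 5 largest in each direction are named, except that 1 result is not reported here. Of the genes and lists used, all were chosen with earlier results of these data known, and the marker and pathway lists serve as description. The alternatives are DESeq2 1.42.0, limma 3.58.1 (voom), other scalings and filters, a replicate block, each kidney left out and each set of wildtype libraries. The direct test between these sets was chosen after seeing the data, as were the 3 promoters printed, which were read from GRCm39 with starts from GENCODE. No pair of kidneys in a group agreed within sampling noise (chi-square per gene at least 5.96). P-values measure only the spread between these samples.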

Additional observations from a re-analysis of the deposited data

Results flagged for a closer look

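Within the 8 wildtype kidneys, 1 kidney stood apart from the others for 2 of the 32 genes by Dixon's test at the 95% level, and chance alone flags about 1 in 20 such groups. For both genes it was replicate 2, as the lowest. Sucla2 stood at 146.9 CPM there, with the next wildtype kidney at 161.4 CPM. Idh1 stood at 262.2 CPM there, with the next at 301.2 CPM. The groups of 12 kidneys were not tested in this way.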

How the results depend on the processing

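Over 11 other settings, the number of the 32 genes called in PKD against wildtype ran from 11 (library totals only) to 24 (only the 3 wildtype libraries with other names), beside 16. In PKD + Salsalate against PKD it was 1, Acss1, under each of them. In PKD + Salsalate against wildtype it ran from 8 to 19, beside 12, with 19 against the 3 other wildtype libraries. Scaling by library totals gave 8 lower and 3 higher genes in PKD (72.7% of the calls lower, beside 87.5%), and 5 lower and 3 higher in PKD + Salsalate (62.5%, beside 83.3%), with the median of all tested genes 0.10 and 0.08 above 0. The shares of all tested genes called under library totals are not given here, so these counts have no background beside them. No setting turned the direction of a gene called with all libraries, whereas 5 genes not called there were called in opposite directions against the 2 sets of wildtype libraries. Leaving out each of the 32 kidneys gave 14 to 19 genes, 1 to 1 and 11 to 13 genes in the 3 comparisons. With a replicate block the counts were 14, 1 and 11. Same-numbered PKD and PKD + Salsalate kidneys correlated at -0.40 to 0.41 in their deviations and 1 of 12 correlated best with its own number, so the numbers were not taken as pairs. Over all genes, the PKD + Salsalate against PKD calls ran from 48 with the block to 257 with only the 3 other wildtype libraries, beside 81. In PKD against wildtype, calls were lost with library totals (Pdhb, Dlat, Acss3, Idh3b, Suclg2 and Sucla2), with no filter (Idh3b, Suclg2 and Sucla2), with the block (Idh3b and Sucla2), with upper-quartile factors (Sucla2), with the R set (Dlat, Idh3b, Suclg2 and Sucla2) and with the other set (Acss3, Got1 and Gpt2). In PKD + Salsalate against wildtype, they were lost with library totals (Pdhb, Dlat, Acss1, Sucla2 and Idh1), with no filter or the R set (Acss1, Sucla2 and Idh1), with the block (Acss1) and with the other set (Got1 and Gpt2). The lowest count of the 32 genes was 107. At the depth of these libraries 25 of 50 simulated 1.3-fold changes were recovered in PKD against wildtype over 13841 genes. The simulation changed far fewer genes than are called in the data and drew them from all tested levels. Its share therefore does not say how many such changes would be found among the 32 genes.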
